A study of Mus musculus with 4 samples.

Results

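Contractile basal cells are the basal epithelial cells of the mammary organoids that carried smooth muscle transcripts. They were selected cell by cell on CPM, the UMIs of a gene per 1000000 UMIs of the cell. A cell was kept with 1000 to 6000 detected genes and under 5% mitochondrial UMIs. It was then taken as a member with Krt14 at 500 CPM or more, Areg under 300 CPM, the 4 squamous genes Krt16, Krt6b, Krtdap and Sprr1b together under 300 CPM, the 4 mitotic genes Cenpf, Ccnb2, Cdc20 and Birc5 together under 100 CPM, and Acta2, Cnn1 and Myh11 together at 500 CPM or more. Of 33268 cells, 17360 were kept, 2217 of these were Krt14-high and Areg-low, and 272 were members. The members numbered 61 in WT control, 112 in WT HU, 38 in Brca2mut/WT control and 61 in Brca2mut/WT HU, and values of the 4 libraries are given in this order throughout. They were set beside 1356 low-contractile basal cells, which met every term but the contractile minimum, and beside 14008 HR- luminal cells, with Krt14 and Areg both under 300 CPM.

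The organoids were grown in Matrigel from mammary glands of aged virgin females, either WT or littermates with 1 germline truncating allele of Brca2 (Brca2mut/WT). Hydroxyurea (HU), which starves cells of deoxynucleotides and so slows replication forks, was given at 1 mM for 24 h in each passage. Organoids frozen at passages 0 and 4 were thawed, cultured for 3 days and dissociated for droplet sequencing. The labels give 2 replicates per library and 1 library per condition, whereas a figure legend of the study gives 3 mice per condition. The control libraries came from organoids cultured without HU. All cells of a Brca2mut/WT library carried the allele, luminal cells included. The study describes both passages for every genotype and treatment, while the labels give 1 library for each, and which cells came from which passage was not given in the sources used here, so a difference in passage between libraries cannot be told apart from the condition. Since each condition was a single library, differences between conditions carry no test, and every interval given here covers counting error only.

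Myoepithelial cells form the outer layer of mammary ducts and alveoli, between the luminal cells and the basement membrane. They contract in response to oxytocin and so eject milk, using the actin, myosin and calponin proteins of smooth muscle, although they are epithelial cells with keratins 5 and 14. They also lay down much of the basement membrane, and cultured basal cells can lose the contractile proteins while they keep their keratins.

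The files held 302135155, 258821284, 243430259 and 258118001 gene UMIs in 9358, 8158, 8113 and 7639 cells. Summed over the members, 1394165 UMIs were available in WT control, 2384284 in WT HU, 823359 in Brca2mut/WT control and 1370275 in Brca2mut/WT HU. A member held a median of 19861, 20758, 21345 and 21193 UMIs and 4396, 4458, 4480 and 4632 genes, against 24718 to 27595.5 UMIs for HR- luminal cells. Each cell also carried counts of 4 antibody tags, whose key was not given, so cells with 1 dominant tag were treated as 4 unlabelled pools per library. No doublet caller was run. Among the members 9.84%, 10.7%, 13.2% and 8.20% had no single tag, near the 9.45%, 8.62%, 11.8% and 12.7% of all kept cells. Of 33139 distinct barcodes 129 occurred in more than 1 library, 2 of them in members.

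The label of these cells was checked on 5 markers, 3 of which had been used to choose them. Acta2, smooth muscle alpha-actin (chr19:34241090-34255590, minus strand), had 3424, 4227, 6912 and 3782 CPM in the summed members, against 19.5, 24.1, 12.3 and 31.8 CPM in low-contractile basal cells and 41.6, 50.3, 47.9 and 75.4 CPM in HR- luminal cells. Cnn1, calponin (chr9:22099216-22109630), had 118, 213, 318 and 182 CPM, and Myh11, smooth muscle myosin heavy chain (chr16:14194535-14291372, minus strand), had 43.8, 142, 261 and 94.1 CPM. These 3 values were fixed in part by the rule. Tagln, the actin-binding protein transgelin (chr9:45929619-45936058, minus strand), was not used by the rule and had 1442, 1665, 2428 and 1128 CPM in members, 11.9, 9.42, 21.1 and 31.5 CPM in low-contractile basal cells and 3.89, 5.21, 5.91 and 7.49 CPM in HR- luminal cells. Postn, the matrix protein periostin (chr3:54361109-54391037), had 270.4, 422, 486 and 824 CPM in members, 60.9, 39.8, 85 and 65.8 CPM in low-contractile basal cells and 2.59, 2.83, 1.89 and 4.48 CPM in HR- luminal cells. Tagln and Postn were higher in members than in both other classes in each library, and the label rests on these alone, since the rule fixed the order of the other genes against low-contractile basal cells. Coordinates are those of GENCODE vM21 on GRCm38, and all 5 are protein-coding genes.

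Few cells lay near the contractile minimum. Of the 1628 non-squamous, non-mitotic basal cells, 1085 had no UMI of Acta2, Cnn1 or Myh11. A further 182 lay above 0 and under 100 CPM and 78 between 100 and 400 CPM. Just outside the threshold, 11 cells lay between 400 and 500 CPM, and just inside, 9 lay between 500 and 600 CPM. The other members spread upward, with 33 from 600 to 1000 CPM, 124 from 1000 to 4000 CPM and 106 above that. The Krt14 edge was less empty. With every other term met, 32 cells had Krt14 between 400 and 500 CPM and 19 members had it between 500 and 600 CPM.

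The share of contractile basal cells was higher in the HU library of each genotype. They made up 1.15% of kept cells in WT control (exact binomial 95% interval 0.879% to 1.47%) and 2.43% in WT HU (2.00% to 2.91%). In Brca2mut/WT they made up 0.918% in control (0.651% to 1.26%) and 1.85% in HU (1.42% to 2.37%). The HU interval lay above the control interval in both genotypes. Counted against the Krt14-high, Areg-low cells alone, the shares were 8.60% (6.64% to 10.9%), 12.9% (10.7% to 15.3%), 11.9% (8.54% to 15.9%) and 19.1% (14.9% to 23.8%), and there the control and HU intervals touched in both genotypes.

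The antibody tag pools of a library spread over a wider range than the 4 libraries did. In WT control pools 1 to 4 held 16, 1, 14 and 24 members, which were 0.822%, 0.341%, 0.809% and 2.86% of their kept cells. In WT HU they held 24, 41, 16 and 19 members, or 2.06%, 3.73%, 1.08% and 4.09%. In Brca2mut/WT control they held 5, 0, 12 and 16 members, or 0.449%, 0%, 1.03% and 2.45%, where 0 of 718 cells allows a share of up to 0.512%. In Brca2mut/WT HU they held 20, 8, 17 and 11 members, or 1.75%, 1.79%, 1.68% and 3.96%. Pool 4 had the highest share in all 4 libraries, and the pools of control and HU libraries overlapped in both genotypes. By tag number, each HU pool had a higher share than the control pool of its genotype. Whether a tag number means the same source across libraries was not given. Without pool 4 the members would number 37 in WT control and 22 in Brca2mut/WT control, and without pool 2 they would number 71 in WT HU.

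**Figure D1:**
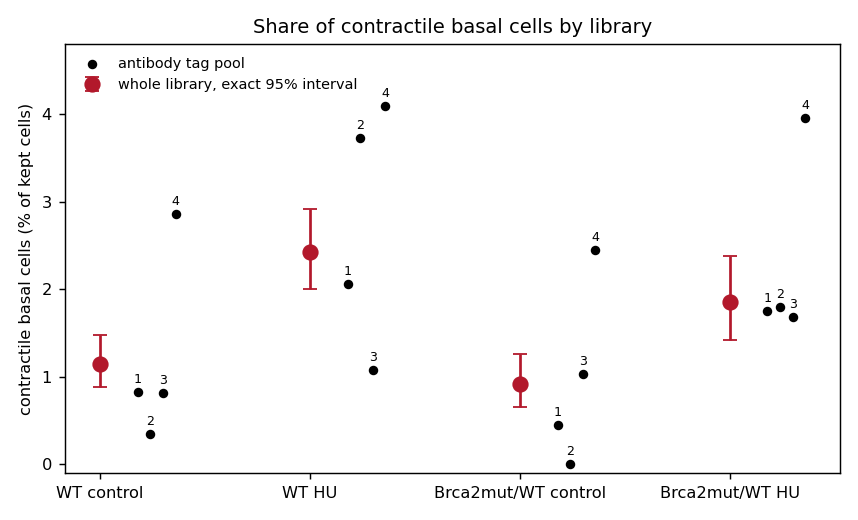
Contractile basal cells as a percentage of kept cells (y axis) in each library (x axis); red points are whole libraries with exact binomial 95% intervals and black points are the antibody tag pools 1 to 4. The HU libraries sit at 2.43% and 1.85%, above the controls at 1.15% and 0.918%, while pool 4 is the highest point of every library.

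The contractile apparatus was read from a list of 26 smooth muscle genes, 22 of which reached 20 CPM in members or low-contractile basal cells in at least 1 library. A gene was called between 2 classes of cells when the ratio passed 2-fold with separate exact Poisson 95% intervals in all 4 libraries, and among all 6764 genes tested 136 (2.01%) were higher and 77 (1.14%) lower in members. Of the 22 contractile genes 14 were higher and 0 lower, among them Acta2, Cnn1 and Myh11 of the rule. Their median log2 ratio, with 1 CPM added, was 1.94, 2.24, 2.64 and 1.93, against -0.03, -0.06, -0.04 and -0.07 over all genes tested. Without the genes of the rule 11 of 19 were higher and 0 lower, with medians of 1.65, 1.96, 2.39 and 1.37. Both classes were chosen from the same cells by the rule, so these ratios are a description and carry no test.

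Outside the rule, the regulatory light chain Myl9 had 644, 671, 944 and 688 CPM in members and 30, 21.6, 40.9 and 31.3 CPM in low-contractile basal cells, a log2 ratio of 4.42 to 4.96. Every library showed nearly the same step. Tpm2, beta-tropomyosin, which lies along the actin filament, had 2475, 2491, 3143 and 2669 CPM against 515, 529, 599.9 and 584 CPM, a log2 ratio of 2.19 to 2.39. Mylk, the kinase that phosphorylates the light chain to start contraction, had 57.4, 139, 158 and 101 CPM against 4.50, 13.8, 3.95 and 7.34 CPM, and was lowest in WT control. Ppp1r14a, an inhibitor of the opposing phosphatase, had 12.9, 28.1, 51 and 19.7 CPM against 1.07, 3.99, 3.02 and 2.20 CPM. Lmod1, an actin nucleator of smooth muscle, had 12.2, 22.6, 43.7 and 21.9 CPM against 3.0, 0.856, 2.09 and 2.93 CPM. Nexn, which ties actin to adhesion sites, had 33, 54.5, 70.4 and 58.4 CPM against 3.75, 5.42, 4.65 and 3.18 CPM. For none of these genes did the levels of the 2 classes overlap across libraries.

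Of the contractile genes with wide use in other cells, Myl6, Cald1, Tpm1 and Tagln2 were not called, while Cnn2, a calponin of non-muscle cells, was called higher. Myl6, the essential light chain, had 2749, 2783, 3047 and 2767 CPM in members and 1304, 1302, 1312 and 1395 CPM in low-contractile basal cells, a log2 ratio of 0.99 to 1.22 that fell short of 2-fold in 1 library. Cald1, caldesmon, had a log2 ratio of 0.84 to 1.45 and Tpm1, alpha-tropomyosin, one of 0.49 to 1.42. Tagln2, the broadly expressed relative of transgelin, went the other way. It had 282, 212, 288 and 169 CPM in members and 429, 424, 349 and 299 CPM in low-contractile basal cells. Members were thus lower in all 4 libraries without passing the fold in all of them. Actg2, the enteric smooth muscle actin, reached 1.43, 9.23, 77.7 and 10.2 CPM, and 93.8% of its UMIs in Brca2mut/WT control came from 1 cell. The smooth muscle genes Synpo2, Des, Ppp1r12b and Filip1l stayed under the minimum level.

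**Figure D2:**
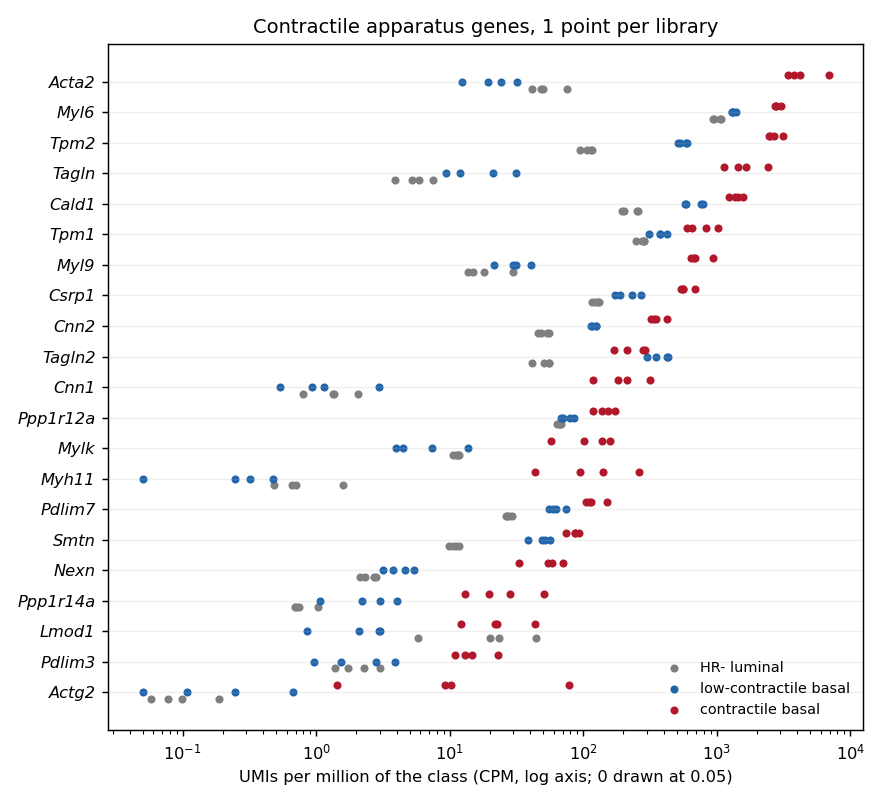
Level of 21 of the 22 tested contractile apparatus genes (y axis) in CPM of the summed class (x axis, log scale, 0 drawn at 0.05), with 1 point per library for contractile basal (red), low-contractile basal (blue) and HR- luminal cells (grey). The red points of Acta2, Tagln, Myl9, Cnn1 and Myh11 stand apart from both other classes, while those of Tagln2 lie below the blue points.

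The myosin and actin families each hold a gene of the rule, Myh11 and Acta2, whose direction against low-contractile basal cells the rule set. Myh9, the non-muscle heavy chain, had 546, 440.4, 519 and 528 CPM in members and 219.7, 197, 256 and 259 CPM in low-contractile basal cells, and it and Myl9 were called higher among the 6 myosin genes tested outside the rule. In the actin family 0 of 4 genes outside the rule were called. Acta1, skeletal actin, reached 214 CPM in Brca2mut/WT control, but 98.9% of those UMIs came from 1 cell. Tpm2 was the single tropomyosin of 4 that passed.

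Smooth muscle genes are known targets of serum response factor (SRF), which binds the CArG box and is switched on by myocardin family coactivators that sense free actin. Srf itself had 9.32, 11.3, 8.50 and 13.1 CPM in members and 8.25, 7.80, 6.27 and 7.58 CPM in low-contractile basal cells, and Mrtfa, a coactivator, had 9.32, 12.6, 13.4 and 10.2 CPM against 14.7, 14.2, 11.4 and 11.7 CPM. Both stayed under the minimum level, and the 2 classes overlapped in Mrtfa. Myocd, the smooth muscle coactivator, had no UMI in members. Tgfb1i1 (Hic-5), a focal adhesion protein and coactivator, had 111, 145, 181 and 123 CPM against 27.6, 30.2, 33.5 and 23.7 CPM and was called higher. Csrp2, a LIM protein of smooth muscle, went the other way, with 5.74, 6.71, 6.07 and 8.03 CPM in members and 78.4, 38.9, 32.1 and 22.3 CPM in low-contractile basal cells.

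The CArG box was searched on both strands of the RefSeq promoters of GRCm38.p6, 250 bases before to 50 bases after each gene start. It was found in 535 of 32851 promoters (1.63%) and in 97 of the 5385 genes tested that had a promoter there (1.80%). Of the genes higher in members than in low-contractile basal cells 5 of 99 held it (5.05%), namely Cnn2, Egr2, Myl9, Ripor2 and Rnf128, and of the lower genes 0 of 51 did. Of the contractile list 4 of 21 held it (19.0%). The windows of these 4 are shown, since they hold the letters that the search asked for. The box is in capitals with 20 bases on each side, read along the strand of the gene. The window of Myl9 lies at chr2:156775283-156775332 on the plus strand with its box starting 161 bases before the gene start, that of Cnn2 at chr10:79988524-79988573 on the plus strand 56 bases before, that of Myl6 at chr10:128493030-128493079 on the minus strand 50 bases before and that of Filip1l at chr16:57549160-57549209 on the plus strand 62 bases before.
Myl9: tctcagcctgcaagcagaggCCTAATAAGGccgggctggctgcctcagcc
Cnn2: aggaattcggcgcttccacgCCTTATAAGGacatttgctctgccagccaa
Myl6: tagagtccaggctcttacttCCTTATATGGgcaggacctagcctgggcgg
Filip1l: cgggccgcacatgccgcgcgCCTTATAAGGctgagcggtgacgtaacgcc
Cnn2 and Filip1l share the same box. The search asked for a core of A or T between paired C and paired G bases, so every match has that form by definition. Of these genes Myl9 and Cnn2 were called higher in members, where Cnn2, the calponin of non-muscle cells, had 339, 348, 423 and 320.4 CPM against 115, 117, 125 and 124 CPM. A match is a description of letters and was not tested as a binding site.

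The receptors that trigger contraction were sparse. Oxtr, the oxytocin receptor, had 55.9, 47, 69.2 and 54.7 CPM in members, 6.0, 7.80, 13.7 and 13.9 CPM in low-contractile basal cells and 7.13, 8.07, 7.35 and 8.53 CPM in HR- luminal cells, a log2 ratio of 1.97 to 3.22 over the first. With each cell thinned to 5000 UMIs, Oxtr was detected in 18%, 15.6%, 23.7% and 15.5% of members, against 3.53%, 3.63%, 3.54% and 4.00% of HR- luminal cells, and without thinning in 31.1%, 33.0%, 47.4% and 47.5% of members. Oxtr was thus above the share seen in luminal cells in every library. Of 11 genes of contraction receptors, channels and coupling tested, Oxtr and Prkg1 were higher and 0 lower, where Prkg1, the cyclic GMP kinase that relaxes smooth muscle, had 12.2, 21.4, 14.6 and 24.8 CPM against 5.36, 10.5, 3.25 and 5.87 CPM. Gja1, the gap junction protein that couples myoepithelial cells, had 139, 91.4, 138 and 147 CPM in members and 246, 191, 300.2 and 193 CPM in low-contractile basal cells. Members were lower in each library, past 2-fold in WT HU and Brca2mut/WT control but not in all.

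Caveolae, the membrane pits that are dense in smooth muscle, did not set the members apart from other basal cells. Of 8 genes tested, Cavin2 alone was higher, at 154, 132, 209 and 228 CPM against 59.1, 61.8, 96.4 and 95.4 CPM. Cav1, caveolin 1, had 177, 216, 183 and 144 CPM against 148, 156, 162 and 139 CPM, and the levels overlapped. Against HR- luminal cells, with 8.47, 8.15, 6.95 and 6.50 CPM of Cav1, 4 of 8 were higher.

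Among the keratins of basal cells Krt14 alone was called lower in members than in other basal cells. Krt14, used in the rule for both classes, had 2344, 3099.9, 1743 and 1536 CPM in members and 8863, 8333, 6301 and 6239 CPM in low-contractile basal cells, a log2 ratio of -2.02 to -1.43. Krt5, the partner of keratin 14 and not part of the rule, had 1163, 1555, 1108 and 802 CPM against 2432, 2235, 1681 and 1798 CPM and was lower in each library, past 2-fold in the control of WT and the HU library of Brca2mut/WT. Krt15 had 17.9, 96, 128 and 29.2 CPM against 117, 276, 108 and 139.6 CPM and Krt17 522, 528, 641 and 301 CPM against 389, 455, 275 and 350.4 CPM, and neither had the same direction in all 4 libraries. Trp63, the p63 factor that specifies basal epithelium, had 69.6, 76.8, 65.6 and 88.3 CPM against 57, 57.1, 72.3 and 77 CPM, and the classes overlapped. Of 12 basal keratins and transcription factors tested, Egr2 and Irx4 were higher and Krt14 lower, with median log2 ratios of 0.43, 0.35, 0.24 and 0.25 over the 11 genes outside the rule. Irx4, a homeobox factor, had 8.61, 18.9, 12.1 and 21.9 CPM against 0.750, 3.90, 1.16 and 3.42 CPM, and Egr2, a zinc finger factor, had 18.6, 19.7, 29.1 and 27.7 CPM against 4.18, 5.61, 6.04 and 8.31 CPM. Snai2, a repressor of luminal genes, had 89.7, 82.6, 81.4 and 74.4 CPM against 55.2, 55.4, 69.5 and 62.6 CPM and Id4, an inhibitor of differentiation, 532, 621, 632 and 487 CPM against 336, 440.2, 284 and 213 CPM, both higher in each library without passing 2-fold in all.

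Of 21 basement membrane genes tested, 4 were higher and 0 lower in members, with median log2 ratios of 0.80, 0.72, 0.85 and 0.81, against the -0.03, -0.06, -0.04 and -0.07 of all genes. Col4a1, a chain of collagen IV, had 181, 154, 429 and 319 CPM against 26.3, 33, 44.1 and 98.3 CPM, and its partner Col4a2 had 123, 109, 216 and 185 CPM against 25.8, 24.6, 39.3 and 69.9 CPM. Members of the Brca2mut/WT libraries had the higher values of both. Lama1, a laminin chain, had 8.61, 22.2, 29.1 and 25.5 CPM against 0.965, 8.75, 2.09 and 2.69 CPM and Nid1, which links laminin to collagen IV, 14.3, 8.39, 23.1 and 24.8 CPM against 4.50, 3.61, 8.83 and 7.34 CPM. The laminin chains Lama3 and Lamb3 had log2 ratios of 0.40 to 1.18 and 0.35 to 0.71.

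Of 22 integrin and focal adhesion genes 4 were higher and 0 lower, namely Itga1, Tln1, Ilk and Vim. Tln1, talin, which couples integrins to actin, had 402, 322, 497 and 514 CPM against 140.0, 128, 170.1 and 178 CPM, and Ilk, integrin-linked kinase, had 119, 98.6, 128 and 148 CPM against 46.5, 47.6, 43.2 and 55.3 CPM. Itga6 and Itgb4, the hemidesmosome integrin, had log2 ratios of 0.07 to 0.26 and -0.44 to -0.03.

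Of 20 matricellular and TGF-beta related genes, Postn, Sparc, Bgn, Mmp2 and Ccn2 were higher and Tgfbi lower. Sparc, a collagen-binding glycoprotein, had 1409, 1398, 1703 and 1538 CPM in members against 476, 420.3, 501 and 558 CPM. Bgn, the proteoglycan biglycan, had 81.8, 202, 155 and 182 CPM against 8.15, 24.2, 5.81 and 34.5 CPM, lowest in WT control in the members. Ccn2, connective tissue growth factor and a YAP target, had 550.1, 516, 615 and 610.1 CPM against 134, 156, 154 and 216 CPM, the single gene of 9 YAP targets called. The members and the other basal cells did not overlap in any of these 3 genes.

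Some binding proteins of insulin-like growth factors were also higher in members. Of 7 genes of the insulin-like growth factor (IGF) binding protein list 3 were higher and 0 lower. Igfbp2, which binds IGFs outside the cell, had 619, 526, 1225 and 379 CPM against 61.8, 77, 25.3 and 55 CPM, with 27.2% of the Brca2mut/WT control UMIs in 1 cell. Igfbp5, known for its action in the involuting gland, had 1342, 1281, 1833 and 1842 CPM against 348, 277, 496 and 643 CPM, but 2074, 2192, 1842 and 2346 CPM in HR- luminal cells, so that it did not mark members against the luminal layer. Igfbp7 had 356, 405, 564 and 444 CPM against 105, 72.9, 116 and 155 CPM and 14.9, 13.2, 11.1 and 13.4 CPM in HR- luminal cells.

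Of 16 ligands and related genes of basal cells, the chemokines Cxcl14 and Cxcl12 and the cytokine Il17b were higher and 0 lower. Cxcl14 had 101, 144, 149 and 171 CPM against 6.86, 7.32, 11.2 and 13.9 CPM, Cxcl12 68.1, 62.5, 68 and 128 CPM against 16.6, 13.5, 27.6 and 23.5 CPM and Il17b 101, 49.1, 60.7 and 50.4 CPM against 8.47, 12, 13.9 and 14.7 CPM. The Notch ligands Jag1 and Jag2 had log2 ratios of -0.42 to -0.09 and 0.40 to 0.77, and the Wnt ligand Wnt10a one of -1.73 to -0.11. None of these 3 separated the classes.

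Ranked by the smallest of the 4 library ratios, the 10 leading genes outside the rule were Tagln, Myl9, Entpd1, Cxcl14, Brinp1, Luzp2, Mylk, Upk1b, Nexn and Rcn3. Entpd1 (CD39), which hydrolyses extracellular ATP, had 4.30, 9.65, 20.6 and 10.2 CPM in members and 0.214, 0.285, 0 and 0.245 CPM in low-contractile basal cells. Upk1b, a uroplakin, had 13.6, 32.7, 14.6 and 19 CPM against 0.965, 2.66, 0.697 and 1.96 CPM, and Rcn3, a calcium-binding protein of the secretory pathway, 50.9, 69.2, 82.6 and 64.2 CPM against 2.47, 8.65, 2.56 and 3.18 CPM. Brinp1 had 6.46, 21.8, 13.4 and 16.8 CPM against 0.107, 0.856, 1.16 and 0.245 CPM and Luzp2 23.7, 21, 49.8 and 32.1 CPM against 1.18, 1.43, 2.09 and 3.18 CPM. Levels of Entpd1 and Brinp1 in the low-contractile cells rested on 0 to 9 UMIs per library.

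Squamous and wound keratinocyte markers were lower in members. Krt6a, the keratin of stressed and wounded epidermis, had 11.5, 16.8, 15.8 and 5.11 CPM in members and 608, 276, 365 and 256 CPM in low-contractile basal cells, a log2 ratio of -5.73 to -4.04. The rule capped 4 other squamous genes equally in both classes, and Krt6a was not among them. Of 5 squamous markers tested, Krt6a, Sprr1a, Sbsn and Calml3 were lower and 0 higher. Sprr1a, a cornified envelope protein, had 5.02, 4.61, 3.64 and 0 CPM against 159, 65.4, 95 and 76.3 CPM, and Calml3, a calmodulin-like protein of stratified epithelium, 11.5, 21.8, 13.4 and 3.65 CPM against 67.5, 131, 67.4 and 36.7 CPM. Among the leading lower genes were Krt6a, Aqp3, Stra6, Sprr1a, Cxcl5, Krt79, Msln, Rhov and Aldh3a1. Aqp3, the water and glycerol channel of epidermis, had 0.717, 2.10, 0 and 0 CPM against 62.7, 83.6, 52.5 and 33.5 CPM. Cxcl5, a neutrophil chemokine, had 4.30, 2.10, 10.9 and 6.57 CPM against 59.6, 23.5, 123 and 128 CPM.

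Of S phase genes 0 of 9 were called, with median log2 ratios of -0.82, -0.73, -0.80 and -1.51. The p53 targets had 0 of 17 called and medians of -0.02, 0.03, -0.10 and -0.42, the interferon-stimulated genes 0 of 18 and medians of 0.17, 0.13, 0.01 and 0.09, and the class I antigen genes 0 of 8. Of genes that respond to tissue dissociation 0 of 13 were called, with medians of 0.22, 0.13, -0.13 and 0.71, and of hypoxia and glycolysis genes 0 of 11.

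**Figure D3:**
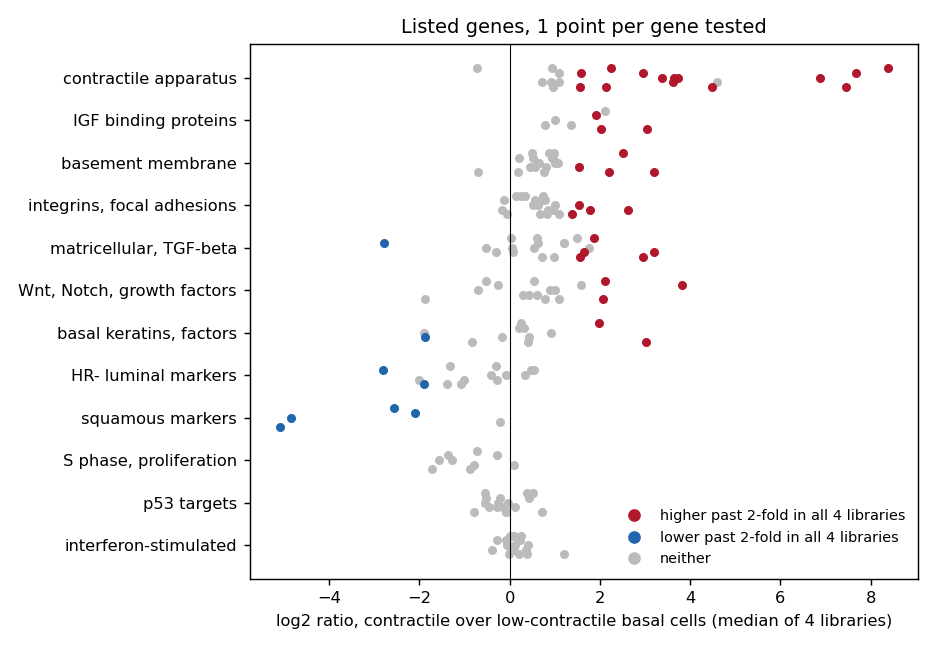
Log2 ratio of contractile over low-contractile basal cells (x axis, median of the 4 libraries, from CPM), with 1 point per tested gene in each of 12 gene lists (y axis); red and blue points are genes called higher or lower past 2-fold in all 4 libraries and grey points the rest. Contractile genes reach the right edge, squamous markers the left, and the p53 and interferon lists hold grey points only.

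Against HR- luminal cells 656 of 6891 genes were higher (9.52%) and 448 lower (6.5%). Over all genes tested the median log2 ratio was 0.03 to 0.11, and scaling by trimmed means (TMM) would lower every ratio by 0.16 to 0.19, which gave 554 higher and 564 lower genes. Leaving out Acta2, Cnn1, Myh11 and Krt14, whose levels the rule set, 17 of 19 contractile genes were higher, and 9 of 11 basal keratins and factors. Of 21 basement membrane genes 16 were higher and of 20 matricellular genes 13. Trp63 had 69.6, 76.8, 65.6 and 88.3 CPM against 10.7, 8.64, 9.13 and 9.18 CPM, Krt5 1163, 1555, 1108 and 802 CPM against 34.1, 29.8, 14 and 19.1 CPM and Col17a1, the hemidesmosome collagen, 222, 225, 168 and 186 CPM against 3.69, 3.03, 2.14 and 2.52 CPM. Exceptions were Sox10, a factor of stem and progenitor cells, at 44.5, 31.9, 54.7 and 68.6 CPM against 151, 129, 151 and 142 CPM, and Npnt, nephronectin, at 10.8, 7.13, 13.4 and 19.7 CPM against 148, 133, 139.8 and 155 CPM. Among the matricellular genes Tgfb3, a TGF-beta ligand, had 56.7, 50.3, 52.2 and 53.3 CPM against 192, 195, 172 and 211 CPM, and Ltbp2, of the latent TGF-beta binding protein family, 59.5, 34, 54.7 and 46 CPM against 254, 264, 311 and 293 CPM. All 4 were called lower in members.

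The 10 leading higher genes were Fam180a, Upk1b, Tagln, Tspan18, Postn, Emp3, Col14a1, Cacna2d1, Slc8a1 and Fbn1. Slc8a1, the sodium-calcium exchanger, had 17.2, 9.65, 24.3 and 17.5 CPM against 0.202, 0.128, 0.127 and 0.169 CPM and Cacna2d1, an auxiliary subunit of calcium channels, 27.3, 46.1, 31.6 and 31.4 CPM against 0.241, 0.478, 0.254 and 0.380 CPM. Both handle calcium, and both were also higher than in low-contractile basal cells. Fbn1, fibrillin, had 29.4, 53.7, 76.5 and 44.5 CPM against 0.270, 0.513, 0.370 and 0.591 CPM, and Col14a1, a fibril-associated collagen, 39.5, 87.2, 72.9 and 67.1 CPM against 0.433, 0.617, 0.416 and 0.563 CPM.

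The luminal programme was low in members but not at 0. The 10 leading lower genes were Atp6v1b1, Scgb2b27, Homer2, Car8, Akap12, 4930469K13Rik, Kit, Cck, Lrg1 and Saa2, and of 17 HR- luminal markers 15 were lower. Kit, the receptor of luminal progenitors, had 5.74, 0.839, 6.07 and 0.730 CPM against 91.5, 76, 104 and 86.7 CPM, and Elf5, the alveolar factor, 7.89, 3.77, 3.64 and 4.38 CPM against 95.4, 125, 104 and 121 CPM. Lcn2, lipocalin 2 and the most abundant of these markers, had 8590.1, 4769.6, 7305 and 7929 CPM in members, 5474, 3460.0, 5812 and 5639 CPM in low-contractile basal cells and 36735, 35112, 33369.8 and 30602 CPM in HR- luminal cells. Summed, the 18 HR- luminal markers made 18085, 9494, 13936 and 14353 CPM in members, 14898, 10706, 15990.0 and 12930 CPM in low-contractile basal cells and 75786 to 87681 CPM in HR- luminal cells. The part of free RNA or of mixed droplets in these values was not tested.

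Interferon-stimulated genes were lower than in HR- luminal cells, with 7 of 19 called lower, 0 higher and median log2 ratios of -0.74, -1.09, -1.05 and -0.74. Ifit3, an antiviral effector, had 32.3, 20.6, 43.7 and 49.6 CPM against 243, 220.3, 345 and 329.6 CPM and Irf7, an interferon regulatory factor, 151, 119, 148 and 209 CPM against 586, 628, 688 and 693 CPM. H2-K1 and H2-D1, the class I heavy chains, were called lower as well, at log2 ratios of -1.75 to -1.54 and -1.27 to -1.01.

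Smooth muscle transcripts can also come from blood vessels or fibroblasts, so their markers were read in the same cells. Of 10 pericyte and vascular smooth muscle markers, Rgs5 had 0, 0.419, 0 and 0 CPM, Cspg4 0, 0.839, 0 and 0.730 CPM and Des 0, 0, 0 and 0.730 CPM in members. The list summed to 709, 439, 645 and 428 CPM, nearly all of it Ndufa4l2, whose protein is mitochondrial. Low-contractile basal cells also had Ndufa4l2, at 1016, 514, 802 and 336 CPM. Pdgfrb had 5.02, 7.13, 3.64 and 7.30 CPM against 1.29, 1.05, 0.697 and 1.47 CPM, and Notch3 was lower in members, at 4.30, 2.10, 2.43 and 0.730 CPM against 20.7, 22.3, 17.4 and 16.4 CPM. The 7 fibroblast markers summed to 17.2, 34.8, 58.3 and 30.7 CPM, most abundantly Col1a2 with 7.17, 16.4, 41.3 and 12.4 CPM, while Col1a1 had 0, 0.419, 1.21 and 0.730 CPM and Col3a1 0.717, 0, 0 and 0 CPM. Endothelial and immune markers summed to at most 1.46 and 1.26 CPM. Col1a2 was the single fibroblast gene that reached the minimum, and it was called higher than in low-contractile basal cells. Pdgfrb was likewise higher in members in each library, and the part of stromal RNA in the contractile values was not tested. Epcam, the epithelial adhesion molecule, had 694, 479.8, 549 and 479 CPM in members and 1795, 1540.2, 1790.0 and 1556 CPM in HR- luminal cells.

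The members differed widely among themselves. Acta2 was detected in all of them, with a median over cells of 2021, 2919.9, 3143 and 3349.8 CPM and a highest cell of 17375, 27212, 28540.5 and 13113 CPM. Tagln was detected in 42, 91, 29 and 41 members, Cnn1 in 23, 59, 15 and 28 and Myh11 in 12, 46, 15 and 17, so that Acta2 alone carried many members past the minimum. Postn was detected in 33, 75, 21 and 45 members. With each cell thinned to 5000 UMIs, the genes with the highest ratio of variance to mean were Lcn2, Fth1, Slpi, Malat1, Sparcl1, Gm42418, Chil1, Tagln, Igfbp5 and Spp1. Their smallest ratio over the libraries ranged from 21.7 for Lcn2 to 9.98 for Spp1, with 11.4 for Tagln and 11.3 for Igfbp5, against a median over all genes of 1.02, 1.04, 0.973 and 1. The ratio grows with the level of a gene, and Gm42418 overlaps ribosomal RNA.

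Within libraries, levels of Myl9, Tpm2 and Igfbp2 were correlated with the contractile sum across cells, while Krt5 and Lcn2 had correlations between -0.14 and 0.12. Spearman's rho with the sum of Acta2, Cnn1 and Myh11 was 0.60, 0.64, 0.62 and 0.63 for Myl9 over 61, 109, 38 and 58 thinned cells. It was 0.61, 0.39, 0.55 and 0.57 for Tpm2, and 0.39, 0.55, 0.39 and 0.29 for Igfbp2. For Krt5 it was -0.06, -0.05, 0.05 and 0.02 and for Lcn2 0.12, 0.11, 0.08 and -0.14. Krt17, a keratin of basal and wounded epithelium, had 0.22, 0.15, 0.35 and 0.06, and the contractile gene Actg2 had -0.03, 0.20, 0.23 and 0.18. Depth went with some of these genes too. With the UMIs of the cell before thinning, rho was 0.11, 0.30, 0.46 and 0.42 for Igfbp2, above its value with the contractile sum in both Brca2mut/WT libraries. It was 0.10, 0.08, 0.49 and -0.12 for Myl9, 0.07, 0.01, 0.36 and 0.12 for Tpm2 and 0.35, 0.27, 0.33 and 0.32 for Krt5. Cells of 1 library share free RNA as well, and these values describe the cells without a test.

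Between 2 libraries a gene was called in members when the ratio passed 1.5-fold with separate exact Poisson intervals. HU against control in WT gave 97 higher (1.63%) and 183 lower (3.08%) of 5951 genes. HU against control in Brca2mut/WT gave 104 higher (1.72%) and 137 lower (2.27%) of 6036 genes. Of these calls, 266 of 280 and 227 of 241 kept their direction without any 1 tag pool, and 215 and 174 were also called after each gene lost its highest cell in both libraries. Genes whose pools did not overlap between control and HU numbered 39 of the called genes in WT and 77 in Brca2mut/WT, against 198 of all 5951 and 452 of all 6036 genes tested. Pool 2 of Brca2mut/WT control held 0 members and was left out, and pool 2 of WT control held 1 member. The counts of the genotypes are therefore not on equal terms. Without pool 4 of WT control the WT contrast gave 217 higher and 283 lower genes, and without the highest cell of each gene the Brca2mut/WT contrast gave 81 lower genes.

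By size of ratio, among calls that kept their direction without any 1 pool, the leading higher genes of WT HU were Krt15, Kazald1, Hpgd, Gfra1 and Ly6k. Krt15, a keratin of basal stem cells, had 17.9 CPM in control and 96 CPM in HU, a log2 ratio of 2.42 (1.82 to 3.08). Hpgd, which degrades prostaglandins, had 22.2 and 95.2 CPM, with 83.9% of the control UMIs in 1 cell. The leading lower genes were Tesc, 2610528A11Rik, Inhba, Il24 and Gm13056. Inhba, a subunit of activin, had 22.2 and 2.94 CPM, a log2 ratio of -2.92, beside -2.07 in low-contractile basal and -1.48 in HR- luminal cells. Il24, a cytokine of stressed epithelium, had 40.2 and 5.45 CPM, with 69.6% of the control UMIs in 1 cell.

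HR- luminal markers were lower in the summed counts of the WT HU members, with 7 of 12 called lower, 0 higher and a median log2 ratio of -0.77. The same 12 genes had medians of -0.33 in low-contractile basal cells and -0.00 in HR- luminal cells. In Brca2mut/WT, HU against control gave 3 of 10 lower, 0 higher and a median of -0.06 in members. Between the control libraries 5 of 12 were lower and 1 higher in Brca2mut/WT, with a median of -0.34. Csn3, kappa-casein, had 2152 CPM in WT control and 765 CPM in WT HU members, and Lcn2 8590.1 and 4769.6 CPM. Lalba, also among the 7, drew 73.5% of its WT control UMIs from 1 cell. In thinned cells the ratio of variance to mean of Wfdc18 was 34.9 in WT control and 11.1 in WT HU. That of Trf was 32.3 and 18.3, while Lcn2 went the other way, at 23.3 and 30.9. Krt7 kept its call without the highest cells. Whether the fall was spread over the WT members or rested on a few control cells was not tested. Of 20 contractile genes 5 were higher, namely Cnn1 and Myh11 of the rule and Mylk, Ppp1r14a and Nexn, and 0 lower, with a median of 0.08. Without the genes of the rule 3 of 17 were higher, with a median of 0.05.

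In Brca2mut/WT, by the same ranking, the leading higher genes of HU were Ephb6, Serpina3n, Fam20a, Ccdc9 and Rassf10. Serpina3n, a protease inhibitor, had 14.6 and 73 CPM, a log2 ratio of 2.32 (1.46 to 3.32), against -0.33 in low-contractile basal and 0.08 in HR- luminal cells. Ephb6, an ephrin receptor, had 4.86 and 27.7 CPM. The leading lower genes were Acta1, Mmp3, Fn1, Tubb2b and Ankrd1, of which Acta1, Mmp3 and Ankrd1 drew nearly all of their control UMIs from 1 cell each (98.9% for Acta1) and lost the call without it. Fn1, fibronectin, had 129 and 18.2 CPM, with 45.3% of the control UMIs in 1 cell. Its log2 ratio of -2.82 shrank to as little as -0.72 when 1 tag pool was left out.

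Contractile genes were lower in the summed counts of the Brca2mut/WT HU members, with 10 of 22 called lower, 0 higher and a median log2 ratio of -0.65, while the same genes had medians of 0.09 and 0.19 in low-contractile basal and HR- luminal cells. Tagln had 2428 CPM in control and 1128 CPM in HU, a log2 ratio of -1.11, and Tpm1 1014 and 601 CPM. Acta2, Cnn1 and Myh11, which chose the cells, were among the 10, and without them 7 of 19 were lower, with a median of -0.46. Without the highest cell of each gene 5 of the 10 were still called, and 2 of the 7. The typical member did not show the fall in every gene. The median over cells was 3143 CPM in control and 3349.8 CPM in HU for Acta2 and 289 and 331 CPM for Tagln, while it was 661 and 589 CPM for Tpm1. The highest cell had 28540.5 CPM of Acta2 in control and 13113 CPM in HU. The control library here had the fewest members, 38, and the highest summed levels of Acta2, Cnn1 and Myh11 of all 4 libraries, but the highest median of Acta2 over cells was that of Brca2mut/WT HU.

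The contrasts of the 2 genotypes share no library, and 29 genes were called in the same direction in both, which is 10.4% of the 280 WT calls and 12% of the 241 Brca2mut/WT calls. Of these 9 were higher and 20 lower with HU, 24 kept both directions without any 1 pool, and 17 of the 24 were also called without their highest cells. Postn had 270.4, 422, 486 and 824 CPM, higher in the HU library of each genotype. Apoe, apolipoprotein E, had 433, 948, 590.3 and 1425 CPM, and Mmp2, a gelatinase, 38, 69.2, 30.4 and 93.4 CPM. Ecrg4, a secreted peptide precursor, had 48.8, 90.6, 41.3 and 144 CPM and Sgk1, a kinase induced by glucocorticoids, 184, 281, 206 and 359.8 CPM. For Apoe the log2 ratios were 1.13 and 1.27, beside 0.99 and 0.92 in low-contractile basal and 0.48 and 0.85 in HR- luminal cells, so the higher level was not particular to members. For Postn they were 0.64 and 0.76, beside -0.61 and -0.37 in low-contractile basal and 0.13 and 1.24 in HR- luminal cells.

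Among the 20 lower genes, Krt7, a simple epithelial keratin, had 603, 202, 532 and 285 CPM and Sox9, a progenitor factor, 447, 261, 379 and 207 CPM. Ccn1, a matricellular YAP target, had 273, 129, 227 and 109 CPM and Tnc, tenascin C, 185, 91.4, 120.2 and 72.2 CPM. Tnnt2, troponin T of striated muscle, had 53.1, 25.6, 54.7 and 17.5 CPM and Nupr1, a stress-response factor, 308, 148, 342 and 151 CPM. The 2 control libraries were above the 2 HU libraries for all 6. Ccn1 had log2 ratios of -1.08 and -1.05 in members, against -0.19 and -0.00 in low-contractile basal cells and -0.15 and 0.27 in HR- luminal cells. Sox9 was lower in the other classes too, at -0.54 and -0.59 in low-contractile basal and -0.57 and -0.55 in HR- luminal cells.

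Another 19 genes were called in opposite directions, 6.79% and 7.88% of the calls, and 11 of them kept both without any 1 pool. Myh11 and Cnn1 were among them, higher with HU in WT and lower in Brca2mut/WT. Spp1, osteopontin, had 1126, 315, 228 and 488 CPM, lower with HU in WT and higher in Brca2mut/WT. Over all genes tested, HU gave 1.63% higher and 3.08% lower in WT, and 1.72% and 2.27% in Brca2mut/WT. The shares called in the same direction and in opposite directions both lay above these.

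**Figure D4:**
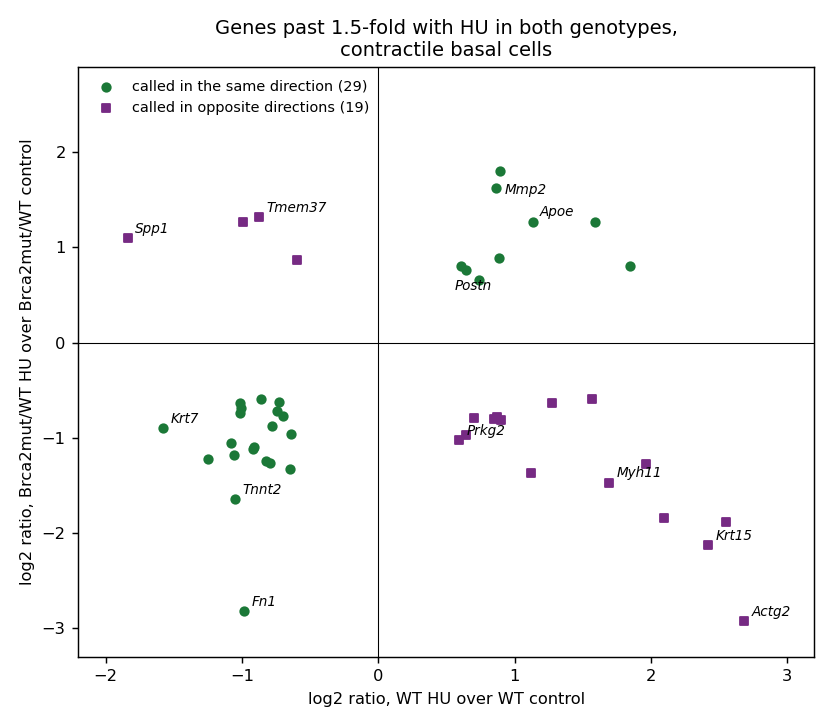
Log2 ratio of HU over control in contractile basal cells of WT (x axis) and Brca2mut/WT (y axis) for the genes past 1.5-fold in both; green circles are the 29 called in the same direction and purple squares the 19 called in opposite directions. Apoe, Mmp2 and Postn lie at the upper right, Krt7, Tnnt2 and Fn1 in the lower left, and Myh11, Krt15 and Actg2 in the lower right.

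Brca2mut/WT control against WT control gave 88 higher (1.46%) and 104 lower (1.73%) of 6026 genes, with 166 of 192 keeping their direction without any 1 pool. This contrast shares both its libraries with the HU contrasts. Of 22 contractile genes 9 were higher and 0 lower, with a median log2 ratio of 0.54. Acta2, Cnn1 and Myh11 of the rule were among them, and without these 6 of 19 were higher, with a median of 0.46. Tagln, outside the rule, had 1442 CPM in WT and 2428 CPM in Brca2mut/WT when summed, but medians over cells of 328 and 289 CPM. The leading higher genes were Acta1, Ankrd1, Myh11, Col1a2 and Gfra1, the first pair of them resting on 1 cell. Col1a2, a chain of collagen I, had 7.17 and 41.3 CPM, with 26.5% of the latter UMIs in 1 cell. Its log2 ratio of 2.53 fell to as low as 0.26 when 1 tag pool was left out. The part of fibroblast RNA in these values was not tested. The leading lower genes were Apod, Rbp7, Lalba, Met and Ptx3, of which Rbp7, Lalba and Ptx3 lost the call without their highest cells. Met, the receptor of hepatocyte growth factor, had 24.4 and 3.64 CPM, a log2 ratio of -2.74 (-5.09 to -1.07).

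Brca2mut/WT HU against WT HU gave the most calls, 209 higher (3.51%) and 183 lower (3.07%) of 5953 genes, and 385 of 392 kept their direction without any 1 pool. Without pool 2 of WT HU the counts were 138 and 84, and without pool 1 of Brca2mut/WT HU 114 genes were lower. Both libraries also enter the HU contrasts. The leading higher genes were Tesc, Ifit3b, 2610528A11Rik, Hs3st1 and Sparcl1, and the leading lower genes Ormdl2, Mcm4, Calml3, Aox3 and Gsta4. Ifit3b, an interferon-induced antiviral gene, had 6.29 CPM in WT HU and 42.3 CPM in Brca2mut/WT HU, a log2 ratio of 2.75 (1.91 to 3.68). Sparcl1, a secreted relative of Sparc, had 186 and 766 CPM. Gsta4, a glutathione transferase, had 273 and 57.7 CPM, a log2 ratio of -2.24 (-2.60 to -1.90). Mcm4, a subunit of the replicative helicase, had 27.3 and 4.38 CPM.

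Interferon-stimulated genes were higher in the Brca2mut/WT HU members, with 10 of 18 called higher, 0 lower and a median log2 ratio of 0.73. The same genes had medians of 0.58 in low-contractile basal and 0.32 in HR- luminal cells, so the direction was shared by all 3 classes. Ifit1, which binds foreign RNA, had 64.2 and 108 CPM, Irf7 119 and 209 CPM and Rtp4, another interferon-induced gene, 94.4 and 154 CPM. Of the 10, 8 were also called without their highest cells. HU against control gave 1 of 17 lower and 0 higher in WT, and 2 of 18 higher and 0 lower in Brca2mut/WT. Over the 4 libraries the 20 listed genes summed to 2013, 1655, 1941 and 2197 CPM in members, lowest in WT HU.

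**Figure D5:**
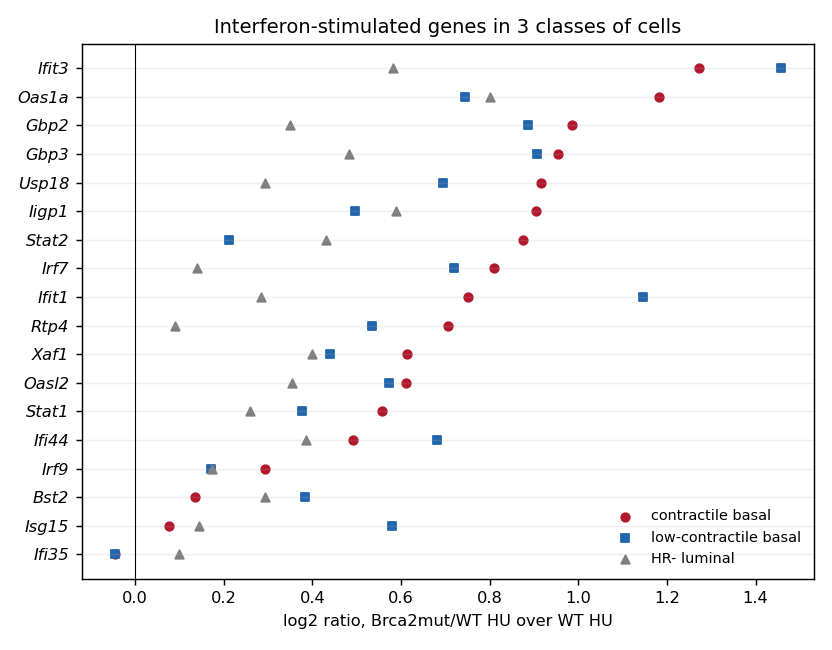
Log2 ratio of Brca2mut/WT HU over WT HU (x axis) for 18 interferon-stimulated genes (y axis) in contractile basal cells (red circles), low-contractile basal cells (blue squares) and HR- luminal cells (grey triangles). Of the 18 genes 17, 17 and 18 lie right of 0, with medians of 0.73, 0.58 and 0.32 in the 3 classes.

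Targets of p53 went the other way, with 6 of 15 called lower, 0 higher and a median of -0.47, against -0.06 in low-contractile basal and 0.01 in HR- luminal cells. Cdkn1a, the p21 inhibitor of the cell cycle, had 202, 111, 71.7 and 48.2 CPM over the 4 libraries in members, 221, 159.7, 147 and 132 CPM in low-contractile basal cells and 171, 263, 246 and 272 CPM in HR- luminal cells. Bax, a mediator of apoptosis, had 188 CPM in WT HU and 116 CPM in Brca2mut/WT HU, and Aen, a nuclease induced by p53, 34.4 and 13.9 CPM. All 6 kept the call without their highest cells. HU against control gave 2 of 16 lower in WT and 1 of 13 lower in Brca2mut/WT, with 0 higher in both. Between the control libraries 3 of 16 were lower and 0 higher in Brca2mut/WT, namely Cdkn1a, Ccng1 and Psrc1. Within members Cdkn1a was highest in WT control and lowest in Brca2mut/WT HU.

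Basal keratins were also lower in the Brca2mut/WT HU members. Krt5, Krt14, Krt15 and Krt17 were called lower and Sox10 higher, 5 of 12 genes of the list. Krt14 was used to choose the cells, and without it 3 of 11 were lower and 1 higher. Krt5 had 1555 CPM in WT HU and 802 CPM in Brca2mut/WT HU, a log2 ratio of -0.96, beside -0.31 in low-contractile basal and -0.64 in HR- luminal cells. Sox10 had 31.9 and 68.6 CPM, a log2 ratio of 1.11, beside 1.07 in low-contractile basal and 0.14 in HR- luminal cells. Collagen IV went with Sox10, where Col4a1 had 154 and 319 CPM and Col4a2 109 and 185 CPM, and both were higher in low-contractile basal cells as well, at 1.57 and 1.51. Postn had 422 and 824 CPM, a log2 ratio of 0.97, beside 0.72 in low-contractile basal and 0.66 in HR- luminal cells.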

How the data were processed

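Droplet libraries were aligned to mm10 by the authors with Cell Ranger (6.0.2 per the submitters' notes, 6.1.1 per the matrix header), and the deposited matrices hold raw UMI counts of 32285 genes and 4 antibody tags per cell. The notes also name Seurat 4.0 and R 4.1.3. The members and gene lists were chosen with earlier results of these data known. Counts were summed per class and library and divided by the class total. Genes needed 20 CPM in either class in at least 1 library (for 2 libraries, in either). Ratios passed at 2-fold between classes and 1.5-fold between libraries with separate exact Poisson 95% intervals. List medians between classes used 1 CPM added, those between libraries none. The calling step was checked on counts simulated with Poisson error only, the error its intervals assume. That check leaves out variation among cells, pools and animals. A single tag meant 0.7 of a cell's tag counts. Named genes were the 10 most changed per direction between classes by their smallest ratio, the 5 most changed and stable without any 1 tag pool between libraries (mitochondrial, ribosomal protein, X-inactivation and Y-linked genes left out), the 10 most variable, and listed genes. Other genes of the paired HU calls were named after their values were seen. Analyses used Python 3.11.15, NumPy 2.4.6, SciPy 1.17.1, pandas 2.3.3, matplotlib 3.10.9 and edgeR 4.0.16 (TMM) in R 4.3.3. Each condition was 1 library, so conditions were compared without a test. Cells outside the 3 classes were not described, and a few genes that the rules pick are not reported here. Alternatives were other cell, gene and gate limits, TMM scaling, equal weight per cell, single-tag cells, another set of other basal cells, and each tag pool or library left out.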

Additional observations from a re-analysis of the deposited data

Results flagged for a closer look

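In contractile basal cells 8 genes moved in opposite directions with HU in the 2 genotypes, past 1.5-fold in each, without any 1 tag pool changing the direction and with the call kept without their highest cells. The difference between the genotypes was not tested, since each condition was 1 library. As log2 ratios of HU over control in WT and in Brca2mut/WT, Myh11 had 1.70 and -1.47 and Cnn1 0.85 and -0.80, both genes of the rule that chose the cells. Prkg2, a cyclic GMP kinase, had 0.59 and -1.03. Dut, which removes dUTP, had 0.90 and -0.81, and Gsta4, a glutathione transferase, had 0.70 and -0.79. Clec11a, a secreted lectin, had 0.64 and -0.97. In the other direction, Spp1 had -1.84 and 1.10 and Tmem37 had -0.88 and 1.32. The Brca2mut/WT control library, with 38 members, was the highest of the 4 in summed CPM of Myh11, Cnn1, Prkg2 and Clec11a.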

How the results depend on the processing

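Single calls did not all hold, since without any 1 tag pool 266 of 280, 227 of 241, 166 of 192 and 385 of 392 calls between libraries kept their direction. Against HR- luminal cells, TMM scaling turned the balance of 656 higher and 448 lower genes to 554 and 564. Its shift of 0.16 to 0.19 exceeded the median log2 ratio over all genes tested, 0.03 to 0.11, so that this median would turn negative. Counts of cells and genes stayed within 1.5 times in 174 checks and passed it in 18. Of the other values, 37 moved by less than their spread and 23 by more, the latter being list medians that were nearer 0 with 5 CPM added and shares of cells that were higher without thinning. Keeping cells with over 6000 genes and up to 10% mitochondrial UMIs gave 97, 67 and 103 members in WT control, Brca2mut/WT control and Brca2mut/WT HU, 50 genes lower than in other basal cells, and 291 and 79 lower genes in WT HU against WT control and Brca2mut/WT HU against WT HU. A Krt14 minimum of 1000 CPM left 38 and 36 members in WT control and Brca2mut/WT HU. Against all other Krt14-high cells, squamous and mitotic included, 152 genes were lower. Removing the highest cell per gene, chosen after seeing the data, left 81 lower genes in Brca2mut/WT HU against control. The causes of these changes were not tested, beyond the larger or smaller number of cells.

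Leaving out 1 tag pool left 37 to 60, 71 to 96, 22 to 38 and 41 to 53 members per library, lowest without pool 4 of both control libraries and pool 2 of WT HU. Leaving out 1 library gave 152 to 169 genes higher and 87 to 96 lower than in low-contractile basal cells, and 687 to 699 higher and 470 to 504 lower than in HR- luminal cells. A call between classes needed every library used, so leaving 1 out could only keep or add calls. Leaving out 1 pool gave 68 to 217 higher and 129 to 283 lower genes in WT HU against control, highest without pool 4 of WT control. It gave 102 to 156 and 115 to 179 in Brca2mut/WT HU against control, and 89 to 124 and 92 to 131 between the controls. Between the HU libraries it gave 138 to 250 and 84 to 256, with 138 and 84 without pool 2 of WT HU and 114 lower without pool 1 of Brca2mut/WT HU. No paired analysis was possible because each condition was 1 library. With 38 to 112 members per library, genes near 20 CPM rested on few UMIs.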
